A study of Mus musculus with 9 samples.

Results

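Gastrocnemius muscle of mice heterozygous for the X753 allele of BubR1 was set directly against gastrocnemius of mice heterozygous for the L1002P allele, at 3 months of age. The 6 carrier libraries were chosen by the genotype in their labels, out of 9 libraries in the series. They were 3 libraries named hetX753 (genotype BubR1+/X753), 3 named hetL1002P (genotype BubR1+/L1002P) and, for reference, 3 named WT. All 3 genotypes were on a mixed 129Sve/C57BL/6 background and all libraries were made from whole muscle, so every cell type of the tissue contributes RNA. X753 truncates the protein and L1002P changes a single amino acid, and each carrier also holds a normal copy. Nothing in the labels ties the 3 libraries of a group to different animals, litters or founder lines, so the p-values below measure the spread between these libraries, which may be partly technical. In whole muscle, fewer cells of a type and less RNA per cell cannot be told apart.

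BubR1 is the product of Bub1b. It sits at unattached kinetochores and, within the mitotic checkpoint complex, holds back the anaphase-promoting complex until every chromosome is attached to the spindle. In people, inherited BUBR1 mutations cause mosaic variegated aneuploidy, and in mice low BubR1 is known for early ageing traits that include muscle wasting. Adult muscle fibres are postmitotic, so the checkpoint's known work falls to the dividing cells of the tissue.

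Totals ran from 20106833 to 27797765 counts in the hetX753 libraries, from 22795669 to 25712368 in the hetL1002P libraries and from 19768149 to 33977252 in the WT libraries. Of 24062 gene symbols, 12989 passed the low-count filter and were tested. The 12 markers that define skeletal muscle, Acta1 and Ckm among them, summed to 220960 to 237870 CPM (counts per 1000000, after scaling of the library's total) in hetX753 and to 228700 to 252470 CPM in hetL1002P. Both groups were therefore muscle by these markers. One library stood apart: hetL1002P 3 lay at -49.4 on the first principal component of the 6 carriers, against -4.38 to 19.8 for the other 5. That component held 40.37% of the variance and did not separate the genotypes. The second, with 25.48%, placed the hetX753 libraries at 14.6 to 21.8 and the hetL1002P libraries at -25.7 to -3.85. On the first component of all 9 libraries, WT 3 lay furthest out at -47.5 and hetL1002P 3 lay at -32.5. The remaining libraries ran from -9.52 to 28.8.

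Bub1b itself was near the limit of what these libraries count. The hetX753 libraries held 8, 8 and 5 Bub1b counts, the hetL1002P libraries 10, 9 and 2, and the WT libraries 21, 11 and 16. The carriers overlapped, and every carrier library lay below every WT library. Libraries stood apart from WT, in either direction, for 32.5% of all genes tested in hetX753 and 9.44% in hetL1002P. Against WT the log2 fold change was -1.21 in both carriers (SE 0.44 in each). Neither passed edgeR's quasi-likelihood test (adjusted p = 0.177 for hetX753 and 0.58 for hetL1002P). The log2 fold change of hetX753 over hetL1002P was 0.01 (SE 0.50, adjusted p = 0.998), so a difference between the alleles was not detectable at this depth. Counts of the whole gene do not tell the altered copy from the normal one.

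The question put to the 6 libraries is whether muscle RNA differs between carriers of a truncating and of a missense allele of the same gene. On a mixed background, the groups may also differ in founder line, litter or inherited strain variants. Such differences cannot be told apart from the allele here. The test was edgeR's quasi-likelihood test, fitted on all 9 libraries, so WT entered the estimate of spread. With Benjamini-Hochberg adjustment over all genes tested, 15 genes were called at an adjusted p under 0.05, which is 0.115% of the 12989 tested. Of these, 8 were higher in hetX753 (0.0616%) and 7 were lower (0.0539%). The higher ones were the histone gene Hist2h2ac, the interferon-inducible GTPase Iigp1, the potassium channel subunit Kcnab1, the glutamate transporter Slc1a3, and Ocel1, 2210015D19Rik, Ankrd33b and Trappc12. The lower ones were the insulin-signalling gene Tbc1d4, the lipid hydrolase gene Pla2g7, Parp3, Limd1, Snhg6, Ccdc43 and the pseudogene Gpr137b-ps. The difference was at least 2-fold for 13 of them, the exceptions being Trappc12 and Ccdc43. They lie on 11 chromosomes, none of them X or Y.

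Beyond those 15, many genes had a small p that did not survive adjustment. At an unadjusted p under 0.05, which some genes pass without any difference, there were 1070 genes, or 8.24% of those tested. The median log2 fold change over all genes was -0.01, and 47.43% of genes were above 0. Libraries of the 2 genotypes did not overlap for 14.4% of all genes tested: for 7.44% every hetX753 library was above every hetL1002P library, and for 6.98% every one was below. All 15 called genes were of this kind. With the 6 carrier libraries alone in the fit, 5 genes were called, all of them among the 15. The number of calls was sensitive to single libraries. It was 0 without hetL1002P 1 (with 823 genes at an unadjusted p under 0.05), 2 without hetL1002P 2, 3 without hetX753 3 and 7 without hetX753 1, while DESeq2 on all libraries called 138 genes. The direction of all 15 was kept in every one of these fits.

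**Figure D1:**
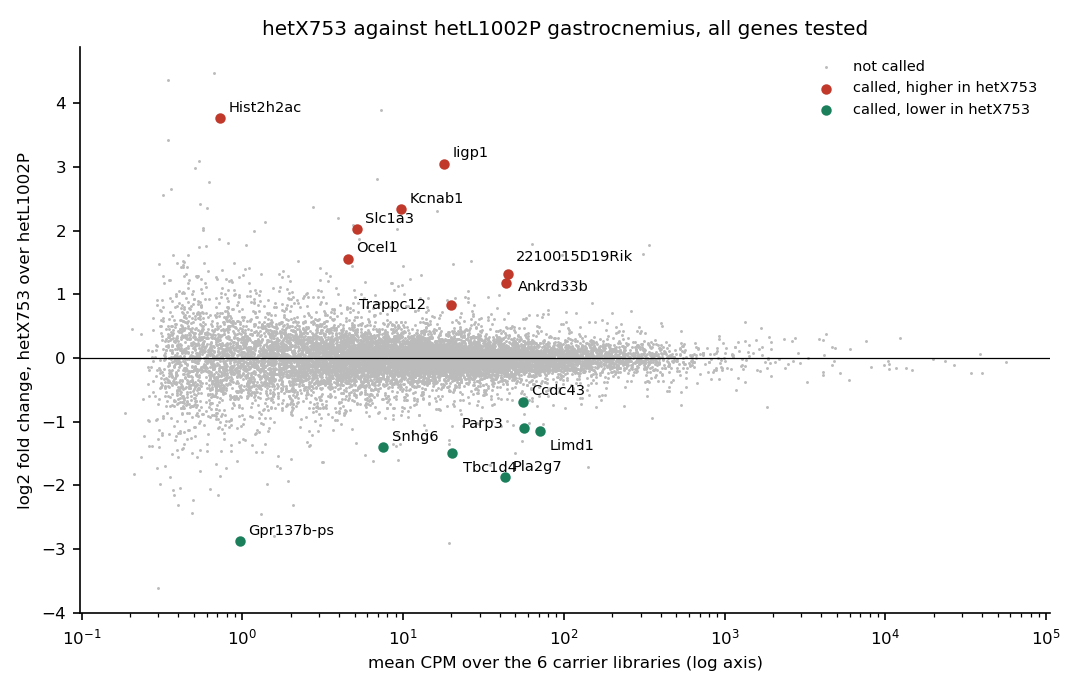
Log2 fold change of hetX753 over hetL1002P (vertical axis) against mean CPM over the 6 carrier libraries (horizontal log axis) for the 12989 genes tested. Red points are the 8 genes called higher in hetX753, green points the 7 called lower and grey points the genes not called, some of which lie as far from 0 as the called genes.

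Of the called genes, the histone gene showed the widest gap. Hist2h2ac encodes a form of histone H2A and lies in a small cluster of histone genes on chromosome 3 (GRCm38, 96220413 to 96220880, minus strand). It had 40, 27 and 34 counts in hetX753, against 2, 2 and 3 counts in hetL1002P and 4, 1 and 2 in WT. Each hetX753 library was above all 6 others. The log2 fold change of hetX753 over hetL1002P was 3.77 (SE 0.42, adjusted p = 0.0231). The ratio of summed counts, scaled to library totals, was 14.3, with an exact 95% interval of 6.71 to 36.5 that covers counting error only.

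The divergent neighbour of Hist2h2ac was not called. Hist2h2be, an H2B gene, starts 191 bases away on the opposite strand. It had 198, 171 and 97 counts in hetX753, against 200, 229 and 156 in hetL1002P, and its log2 fold change was -0.35 (SE 0.18, adjusted p = 0.677). The other 8 genes of this cluster had at most 6 summed counts in any genotype, and none could be tested. Exons of Hist2h2ac overlap those of Gm44492 on the other strand, and the library kit does not mark strand, so reads of the pair cannot be told apart.

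The bases between the starts of these histone genes are shown because a called gene begins at one end and an uncalled one at the other. They are the 191 bases of chr3:96220881-96221071 (GRCm38.p6, RefSeq), read 5′ to 3′ towards Hist2h2ac on the minus strand. Below them stand the 250 bases upstream of Parp3, at chr9:106476950-106477199 on the minus strand, the other called gene whose divergent partner was also measured. Capitals mark CCAAT on either strand (ATTGG where it lies on the other strand) and TATAAA on either strand.
Hist2h2ac: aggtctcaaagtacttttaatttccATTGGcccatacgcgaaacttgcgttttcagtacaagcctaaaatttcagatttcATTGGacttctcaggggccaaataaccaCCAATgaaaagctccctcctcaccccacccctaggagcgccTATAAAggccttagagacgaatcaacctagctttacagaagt
Parp3: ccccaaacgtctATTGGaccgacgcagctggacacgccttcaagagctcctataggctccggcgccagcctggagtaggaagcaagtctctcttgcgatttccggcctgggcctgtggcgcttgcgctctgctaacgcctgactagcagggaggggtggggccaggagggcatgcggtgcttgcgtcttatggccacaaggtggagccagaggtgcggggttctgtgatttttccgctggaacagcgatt

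The histone stretch held 3 copies of CCAAT, 1 forward and 2 on the other strand, and 1 copy of TATAAA just ahead of the Hist2h2ac start. Among 32851 RefSeq promoter windows of the same length, 28.52% held CCAAT and 9.51% held TATAAA on either strand. The octamer ATTTGCAT, known from promoters of H2B genes, had no copy in it and was found in 1.29% of windows. The Parp3 stretch held 1 copy of CCAAT, which 33.85% of windows of its length held, and no TATAAA, which 12.37% held. Neither stretch held GGGCGG, which was in 30.71% of windows of the histone length and in 32.74% of windows of the Parp3 length. The marked copies do not overlap each other, and a match describes the letters only.

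Iigp1 encodes an immunity-related GTPase that interferon induces and that acts on the vacuoles of intracellular parasites. It reached 40.1, 23.4 and 33.2 CPM in hetX753, against 3.70, 3.45 and 4.55 CPM in hetL1002P and 4.38, 3.72 and 13.6 CPM in WT. The carriers were far apart, and the third WT library lay between them. The log2 fold change between the carriers was 3.05 (SE 0.44, adjusted p = 0.0355), about 8.28-fold.

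Iigp1 was the only called gene among 15 tested interferon-inducible GTPases, and the remaining 14 had log2 fold changes of -0.25 to 1.18. Of the 15, 12 were above 0 and the median was 0.57, against -0.01 over all genes. That median was 0.07 without hetX753 3 and 0.88 without hetX753 2. Gbp4, a guanylate-binding protein of the same interferon programme, had 3.66, 2.96 and 9.001 CPM in hetX753 against 2.36, 2.88 and 1.95 CPM in hetL1002P (log2 fold change 1.10, SE 0.39, adjusted p = 0.463). Gbp9 averaged 5.18 ± 0.72 CPM in hetX753 and 2.88 ± 0.99 CPM in hetL1002P (SD, n = 3 each; log2 fold change 0.83, adjusted p = 0.437). Both were apart between the carriers without passing the test. Of the 15 GTPases, 4 had every hetX753 library above every hetL1002P library, against 7.44% of all genes tested, and 0 had the reverse, against 6.98%.

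The wider set of 44 tested interferon response and antigen presentation genes had no call, with 35 above 0 and a median log2 fold change of 0.19 (0.12 without hetX753 1 and 0.13 without hetL1002P 1). Against WT its median was -0.14 in hetX753 and -0.21 in hetL1002P. Its members with the smallest p pointed both ways. Rsad2, an antiviral enzyme, averaged 0.93 ± 0.34 CPM in hetX753 and 2 ± 0.42 CPM in hetL1002P (log2 fold change -1.10, adjusted p = 0.316). Tap1, which carries peptides to MHC class I, averaged 4.68 ± 1.39 CPM in hetX753 and 2.76 ± 0.56 CPM in hetL1002P (log2 fold change 0.75, adjusted p = 0.462).

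Kcnab1 encodes a beta subunit of Shaker-type potassium channels, which binds the channel from inside the cell and speeds its inactivation. It lies on chromosome 3 (64949212 to 65378225, plus strand) and had 21.7, 14.01 and 13.2 CPM in hetX753. The hetL1002P libraries had 3.30, 3.77 and 2.56 CPM and the WT libraries 4.26, 5.68 and 3.09 CPM. The lowest hetX753 library was above all 6 others, and the log2 fold change between the carriers was 2.34 (SE 0.27, adjusted p = 0.0231). Of all called genes it held its call most often, in 7 of the 9 fits that leave out a library. Its exons overlap A330015K06Rik on the other strand.

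None of the other 6 tested Shaker-type channel genes was called, and their log2 fold changes ran from -0.81 to 0.04. Kcnab2, the sister beta subunit, averaged 0.50 ± 0.16 CPM in hetX753 and 0.88 ± 0.31 CPM in hetL1002P (log2 fold change -0.81, adjusted p = 0.648). Of 19 tested potassium channels of other classes, 10 were above 0, none was called, and the median was 0.01, ranging from -0.10 to 0.04 with each carrier library left out. Kcnj2, an inward rectifier that sets the resting potential of muscle, had 40.1, 20.3 and 43.5 CPM in hetX753 against 56.6, 45.8 and 59.8 CPM in hetL1002P (log2 fold change -0.64, SE 0.25, adjusted p = 0.519).

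Slc1a3 encodes the glutamate and aspartate transporter GLAST (chromosome 15, 8634124 to 8710807, minus strand). Its level was 7.58, 9.04 and 8.17 CPM in hetX753, against 2.95, 2.09 and 0.996 CPM in hetL1002P and 1.98, 2.37 and 2.76 CPM in WT. The hetX753 libraries were close together and above all 6 others (log2 fold change 2.02, SE 0.30, adjusted p = 0.0415). The 3 other tested SLC1 transporters were not called: Slc1a5, which carries glutamine, averaged 35.8 ± 16.6 CPM in hetX753 and 25.4 ± 4.96 CPM in hetL1002P, and Slc1a4 averaged 0.49 ± 0.17 CPM in hetX753 and 0.90 ± 0.28 CPM in hetL1002P. Among 21 other amino acid transporters none was called and the median log2 fold change was 0.07, ranging from -0.01 to 0.14 with each carrier library left out.

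Trappc12 (chromosome 12, 28690620 to 28750485, minus strand) encodes a subunit of the TRAPP complex, which tethers vesicles to the Golgi and takes part in autophagy. It had 24.6, 24.5 and 27.1 CPM in hetX753, against 14.4, 14.9 and 13.4 CPM in hetL1002P and 14.5, 13.7 and 13.9 CPM in WT. The replicates were tight in all 3 genotypes, and the log2 fold change of 0.83 (SE 0.11, adjusted p = 0.0266) is the smallest among the higher genes. The other 13 tested TRAPP subunits had log2 fold changes of -0.35 to 0.44 with a median of -0.01, and none was called. The next gene along, Tssc1, lies 1.32 kb beyond the higher coordinate of Trappc12, which is the side of its start. It averaged less in hetX753, at 4.38, 5.33 and 5.08 CPM against 8.18, 7.30 and 9.73 CPM in hetL1002P (log2 fold change -0.77, SE 0.15, adjusted p = 0.104).

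For the last 3 of the higher genes no pathway was listed. Ocel1, named for a domain shared with occludin and ELL proteins (chromosome 8, 71371298 to 71373689, plus strand), had 6.75, 5.56 and 8.12 CPM in hetX753 against 2.48, 2.12 and 2.32 CPM in hetL1002P and 2.22, 2.84 and 3.09 CPM in WT (log2 fold change of the carriers 1.56, SE 0.20, adjusted p = 0.0266). Its exons overlap Nr2f6 on the other strand. Ankrd33b, an ankyrin repeat gene (chromosome 15, 31291479 to 31367802, minus strand), had 54.0, 48.6 and 78.1 CPM in hetX753, against 29.4, 25.6 and 24.8 CPM in hetL1002P and 21.6, 25.1 and 20.2 CPM in WT (log2 fold change 1.18, SE 0.18, adjusted p = 0.0415). The RIKEN gene 2210015D19Rik (chromosome 11, 5762150 to 5784710) had 72.9, 76.8 and 43.0 CPM in hetX753, against 26.6, 22.9 and 27.7 CPM in hetL1002P and 25.4, 25.9 and 32.1 CPM in WT (log2 fold change 1.32, SE 0.20, adjusted p = 0.0438). Its span overlaps that of Urgcp. In each of these genes the lowest hetX753 library was above the highest of the 6 others. Ropn1l, next to Ankrd33b, was barely detected, at 0.43, 0.51 and 0.97 CPM in hetX753 against 0, 0.07 and 0.09 CPM in hetL1002P (adjusted p = 0.101).

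**Figure D2:**
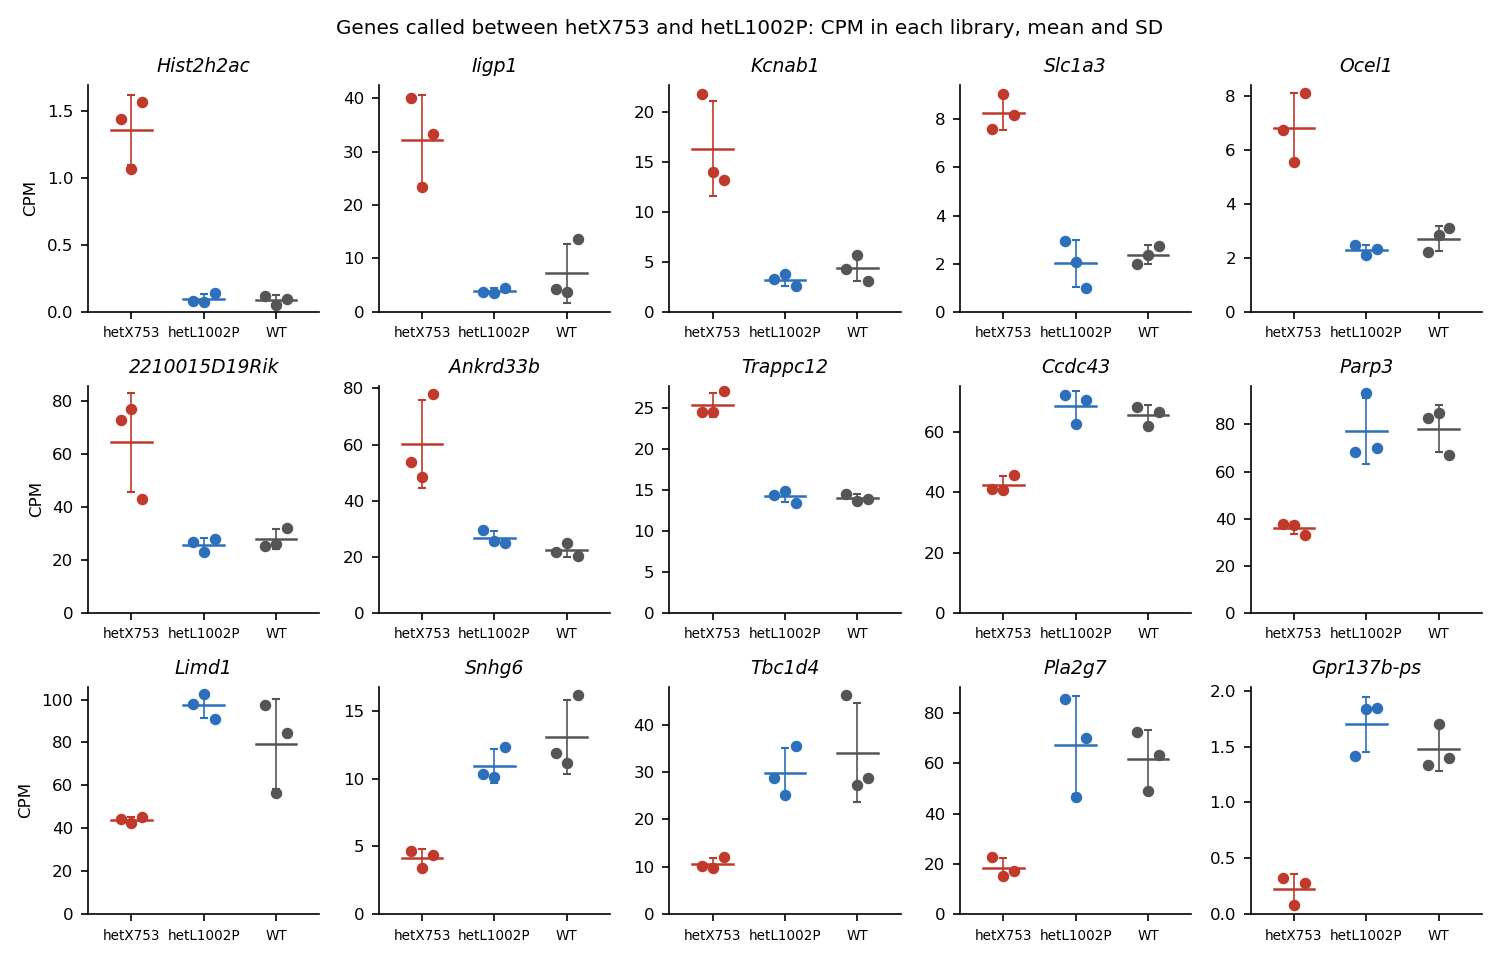
CPM in each library of the 15 genes called between the carriers, in hetX753 (red), hetL1002P (blue) and WT (grey); dots are libraries, horizontal bars means and vertical bars SD (n = 3 each), and every vertical axis starts at 0. In all 15 panels the hetX753 libraries stand apart from the hetL1002P libraries, and the blue and grey dots overlap.

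Among the genes lower in hetX753, Tbc1d4 has the best-known role in muscle. It encodes AS160, the Rab GTPase-activating protein that holds GLUT4 vesicles inside the fibre until Akt phosphorylates it, and lies on chromosome 14 (101442360 to 101609281, minus strand). Its level was 10.2, 9.63 and 11.95 CPM in hetX753, against 28.8, 25.2 and 35.5 CPM in hetL1002P and 46.2, 27.3 and 28.8 CPM in WT. Every hetX753 library was below the lowest of the others by more than 2-fold (log2 fold change between the carriers -1.49, SE 0.21, adjusted p = 0.0355).

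The rest of the insulin-stimulated glucose uptake list stayed near 0. Its 28 other tested genes had log2 fold changes of -0.48 to 0.30 with a median of -0.03, and none was called. Tbc1d1, the paralog of Tbc1d4 with the same substrate class, had 55.5, 63.7 and 58.8 CPM in hetX753 against 46.4, 51.0 and 47.5 CPM in hetL1002P (log2 fold change 0.30, SE 0.13, adjusted p = 0.581). Irs1, the insulin receptor substrate, averaged 52.4 ± 14.6 CPM in hetX753 and 72.9 ± 12.6 CPM in hetL1002P (log2 fold change -0.48, adjusted p = 0.684).

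Pla2g7 encodes the secreted hydrolase that inactivates platelet-activating factor (chromosome 17, 43567994 to 43612202, plus strand). It had 22.8, 15.1 and 17.1 CPM in hetX753, against 85.6, 46.6 and 70.1 CPM in hetL1002P and 72.4, 48.9 and 63.5 CPM in WT. The log2 fold change was -1.88 (SE 0.24, adjusted p = 0.0266), and the highest hetX753 library was under the lowest of the others. Pafah2, the intracellular enzyme for the same substrate, had 2.19, 3.59 and 2.86 CPM in hetX753 against 4.72, 5.21 and 5.41 CPM in hetL1002P. These libraries did not overlap either, as for 14.4% of all genes tested, but Pafah2 did not pass the test (log2 fold change -0.83, SE 0.20, adjusted p = 0.195). The 17 genes of the phospholipase A2 list other than Pla2g7 had a median of -0.14. Macrophages are a known source of Pla2g7: the 16 macrophage markers in the table summed to 104 to 110 CPM in hetX753 and to 89.6 to 181 CPM in hetL1002P, none of them was at 0 in all carriers, and their part in the Pla2g7 result was not tested. Exons of Pla2g7 overlap 1700071M16Rik on the other strand.

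Parp3 encodes a poly(ADP-ribose) polymerase that acts at DNA double-strand breaks (chromosome 9, 106470322 to 106476949, minus strand). It had 37.9, 37.2 and 33.0 CPM in hetX753, against 68.5, 93.5 and 69.8 CPM in hetL1002P and 82.9, 84.9 and 66.9 CPM in WT. The hetX753 libraries were again lowest and closest together (log2 fold change -1.10, SE 0.15, adjusted p = 0.0266). No other of the 14 tested PARP genes was called, and their log2 fold changes lay between -0.12 and 0.22. Rrp9, whose start is 359 bases from that of Parp3 on the opposite strand and whose exons overlap it, had a log2 fold change of 0.17 (SE 0.14, adjusted p = 0.831).

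Limd1 is an Ajuba-type LIM protein that binds LATS kinases of the Hippo pathway (chromosome 9, 123478661 to 123521552, plus strand). It had 44.5, 42.3 and 45.1 CPM in hetX753, against 98.1, 103 and 91.1 CPM in hetL1002P and 97.3, 56.2 and 84.6 CPM in WT. The carriers were apart by a wide margin, while the second WT library came within reach of hetX753 (log2 fold change between the carriers -1.15, SE 0.17, adjusted p = 0.0415). Of 23 tested genes of the list, Limd1 was the only one called and 13 were below 0, with a median of -0.13, which was -0.02 without hetL1002P 1 and -0.04 without hetL1002P 2. The Hippo target Ankrd1 had 4.71, 4.22 and 6.23 CPM in hetX753 against 11.0, 8.81 and 7.31 CPM in hetL1002P (log2 fold change -0.84, adjusted p = 0.351). The kinase scaffold Sav1 averaged 67.1 ± 6.58 CPM in hetX753 and 52.9 ± 2.03 CPM in hetL1002P (log2 fold change 0.34, adjusted p = 0.375).

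Snhg6 is a host transcript of small nucleolar RNAs (chromosome 1, 9942025 to 9944118, minus strand). It had 4.63, 3.39 and 4.34 CPM in hetX753, against 10.4, 10.1 and 12.4 CPM in hetL1002P and 11.9, 11.2 and 16.2 CPM in WT (log2 fold change -1.41, SE 0.19, adjusted p = 0.0266). Snhg18, another such host gene, had 0.61, 1.42 and 0.32 CPM in hetX753 against 2.91, 2.88 and 3.37 CPM in hetL1002P (log2 fold change -1.93, SE 0.39, adjusted p = 0.106). Most of the list lay on the other side of 0: 9 of 13 tested host genes were above 0 and the median was 0.31, or 0.07 without hetX753 1 and 0.19 without hetL1002P 1. Against WT the list median was -0.28 in hetX753 and -0.43 in hetL1002P. Exons of Snhg6 overlap Mcmdc2 on the other strand.

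Ccdc43, a coiled-coil gene (chromosome 11, 102684684 to 102697948, minus strand), had 41.1, 40.7 and 45.7 CPM in hetX753, against 72.2, 62.5 and 70.6 CPM in hetL1002P and 68.3, 61.8 and 66.4 CPM in WT (log2 fold change -0.69, SE 0.10, adjusted p = 0.0423). It is the smallest difference of the 15, and its call was lost in each of the 9 fits that leave out a library. Gpr137b-ps, a pseudogene (chromosome 13, 12614065 to 12650395, minus strand), had 17 summed counts in hetX753 against 126 in hetL1002P and 107 in WT (log2 fold change between the carriers -2.88, SE 0.39, adjusted p = 0.0266). The ratio of its summed counts, hetX753 over hetL1002P and scaled to library totals, was 0.134. Its exact 95% interval of 0.076 to 0.223 covers counting error only. Its near-identical parent Gpr137b, on the same chromosome, lay on the other side of 0, at 3.27, 2.33 and 2.63 CPM in hetX753 against 1.30, 1.58 and 1.33 CPM in hetL1002P (log2 fold change 0.96, SE 0.24, adjusted p = 0.217). Reads of such a pair can be assigned to either copy, so both values are uncertain.

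**Figure D3:**
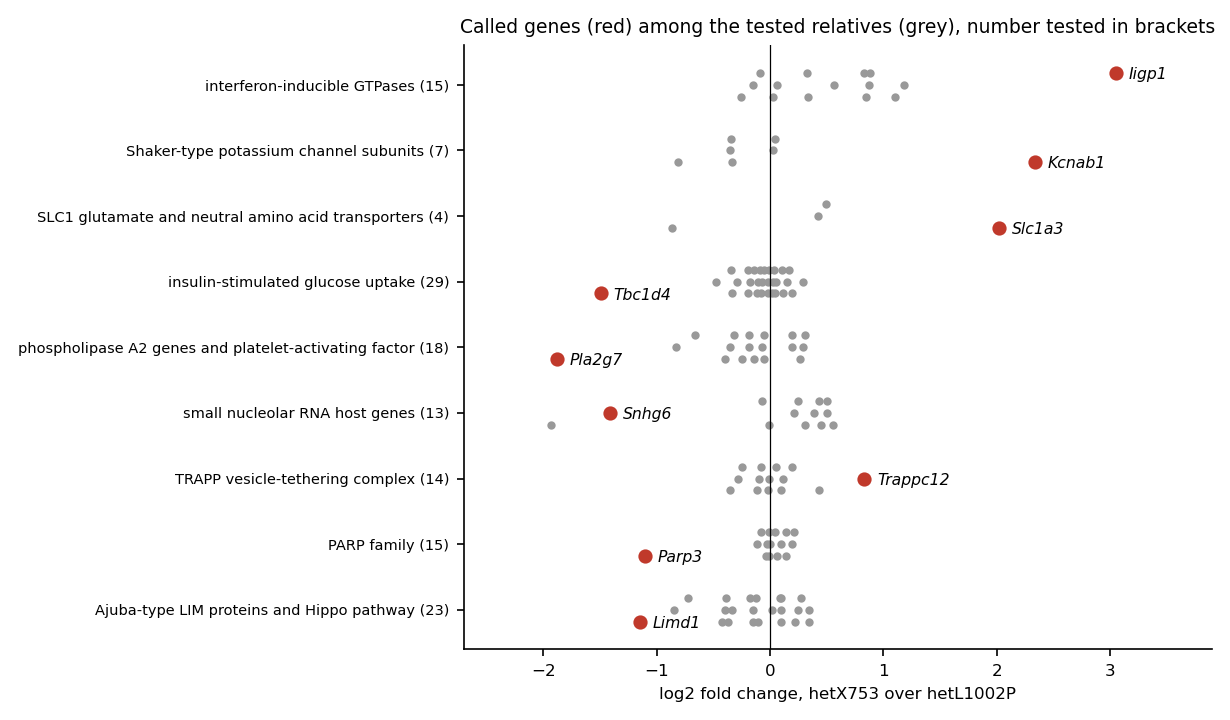
Log2 fold change of hetX753 over hetL1002P (horizontal axis) for the tested members of 9 gene families or pathways that hold a called gene, with the number tested in brackets. The called gene (red) is the outermost point of its row in 8 of the 9; among small nucleolar RNA host genes Snhg18, at -1.93, lies further out than Snhg6.

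WT showed on which side each carrier lay. For all 15 genes the hetX753 libraries did not overlap the WT libraries, a pattern seen in 32.5% of all genes tested in that comparison. The hetL1002P libraries overlapped WT for all 15, and they failed to overlap it for 9.44% of all genes tested. The size of the log2 fold change against WT ran from 0.62 to 3.78 in hetX753 (median 1.66) and from 0.01 to 0.88 in hetL1002P (median 0.21). The widest hetL1002P value was that of Iigp1, at -0.88 (SE 0.43), against 2.17 (SE 0.42) in hetX753. The 3 comparisons share libraries, so these values stand side by side and are not independent of each other.

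No listed pathway without a gene named above held a call, and their values are given as levels. The gene lists covered 750 tested genes in 29 pathways or families and 11 sets of cell type markers. Over all genes tested, 47.43% were above 0. Members of a list may move together, so counts above or below 0 are not independent. A median between the carriers does not tell which carrier lay away from WT. Among 37 tested fatty acid use genes, 25 were above 0 and the median was 0.06, so the list as a whole lay near 0 (0.01 without hetL1002P 2 and 0.16 without hetL1002P 3). Its members with the smallest p stood well above that. Cpt1a, which takes long-chain fatty acids into mitochondria, had 8.41, 13.2 and 13.8 CPM in hetX753 against 4.76, 6.15 and 4.65 CPM in hetL1002P (log2 fold change 1.18, SE 0.21, adjusted p = 0.0633). Ucp3, the uncoupling protein of muscle that fatty acids induce, had 95.4, 190 and 152 CPM in hetX753 against 39.7, 33.0 and 70.5 CPM in hetL1002P (log2 fold change 1.61, SE 0.29, adjusted p = 0.0707). Neither gene's libraries overlapped between the carriers, as was so for 14.4% of all genes tested.

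Angptl4 and Pdk4, both PPAR targets that rise in fasting, had the same ordering with more scatter. Angptl4, an inhibitor of lipoprotein lipase, had 4.17, 10.9 and 4.43 CPM in hetX753 against 2.01, 1.58 and 0.569 CPM in hetL1002P (log2 fold change 2.2, SE 0.51, adjusted p = 0.18). Pdk4, which shuts off pyruvate dehydrogenase, had 265, 463 and 688 CPM in hetX753 against 195, 82.0 and 178 CPM in hetL1002P (log2 fold change 1.64, SE 0.49, adjusted p = 0.361). In all, 6 of the 37 genes had every hetX753 library above every hetL1002P library, against 7.44% of all genes tested, and 0 had the reverse, against 6.98%. Adipocyte markers lay on the same side of 0: 10 of 12 were above 0 with a median of 0.49, which was 0.15 without hetX753 2. Against WT their median was 0.09 in hetX753 and -0.41 in hetL1002P. Their summed level was 2142 to 3321 CPM in hetX753, 1800 to 2357 CPM in hetL1002P and 2229 to 2825 CPM in WT. Little of that sum was Adipoq, which had 14.3, 45.5 and 13.3 CPM in hetX753 against 16.2, 16.5 and 6.17 CPM in hetL1002P. The carriers overlapped for Adipoq, and only hetX753 2 stood above the hetL1002P libraries. None of the 12 markers was at 0 in all carriers, and their part in these values was not tested.

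Stress genes of 2 kinds lay on opposite sides of 0. Of 23 tested heat shock genes, 21 were below 0, the median was -0.13, and 5 had every hetX753 library below every hetL1002P library, against 6.98% of all genes tested. Against WT the heat shock median was -0.21 in hetX753 and 0.03 in hetL1002P. Hsph1, a co-chaperone of Hsp70, had 60.3, 41.7 and 46.8 CPM in hetX753 against 69.3, 64.3 and 96.1 CPM in hetL1002P (log2 fold change -0.63, SE 0.19, adjusted p = 0.384). Hspb8, a small heat shock protein of chaperone-assisted autophagy, had 439, 323 and 344 CPM in hetX753 against 473, 467 and 648 CPM in hetL1002P (log2 fold change -0.52, SE 0.17, adjusted p = 0.415). The third hetL1002P library, which stood apart on the first component, was the highest for both genes, and the list median was -0.08 without it. Without hetL1002P 2 it was -0.25, and without hetX753 1 it was -0.21.

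The Atf4 and unfolded protein list had 19 of 25 tested genes above 0 and a median of 0.15, or 0.07 without hetX753 1. Against WT its median was -0.006 in hetX753 and -0.14 in hetL1002P. Asns, the asparagine synthetase that Atf4 induces, had 2.19, 3.20 and 2.08 CPM in hetX753 against 1.26, 1.01 and 0.806 CPM in hetL1002P (log2 fold change 1.27, SE 0.27, adjusted p = 0.123). Hspa5, the main chaperone of the endoplasmic reticulum, averaged 173 ± 1.13 CPM in hetX753 and 137 ± 9.59 CPM in hetL1002P (log2 fold change 0.33, SE 0.10, adjusted p = 0.351). The carriers did not overlap for either gene, and neither was called. Both were picked for a small p. Of the 25 genes, 5 had every hetX753 library above every hetL1002P library, against 7.44% of all genes tested, and 0 had the reverse, against 6.98%.

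The lists closest to BubR1's own work gave small values. Of 20 tested spindle checkpoint genes none was called, 15 were below 0 and the median was -0.08, which turned to 0.02 without hetL1002P 3. Pttg1, which encodes securin, the inhibitor that the anaphase-promoting complex destroys, had 27.3, 1.38 and 21.3 CPM in hetX753 against 48.0, 44.3 and 67.7 CPM in hetL1002P. Its second hetX753 library was far below the other 2, and the difference did not pass the test (log2 fold change -1.68, SE 0.69, adjusted p = 0.57). Anapc5, a scaffold subunit of that complex, had 1068, 1041 and 941 CPM in hetX753 against 771, 832 and 878 CPM in hetL1002P (log2 fold change 0.30, SE 0.11, adjusted p = 0.474). The 15 tested proliferation genes had a median of 0.01, which ran from -0.09 without hetL1002P 2 to 0.14 without hetX753 2. The 31 tested p53 targets and cell cycle inhibitors had a median of 0.09, or 0.04 without hetX753 1 or hetL1002P 2, and neither list held a call. Cdkn1c, which encodes the inhibitor p57, averaged 31 ± 4.8 CPM in hetX753 and 21.6 ± 3.15 CPM in hetL1002P (log2 fold change 0.52, SE 0.16, adjusted p = 0.375).

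Among muscle lists, 37 of 45 nuclear oxidative phosphorylation genes were below 0 with a median of -0.08, which was 0.10 without hetL1002P 3 and -0.20 without hetL1002P 2. The medians of ribosomal protein and proteasome genes were both -0.02 and changed sign with library totals alone as scaling, to 0.02 in each. Of 19 fast fibre genes none was called. Myh2, the myosin of type IIA fibres, had 1390, 1384 and 1318 CPM in hetX753 against 2895, 1991 and 2080 CPM in hetL1002P (log2 fold change -0.77, SE 0.23, adjusted p = 0.368). Actn3, the actinin of fast fibres, averaged 13599 ± 1076 CPM in hetX753 and 10920 ± 405 CPM in hetL1002P (log2 fold change 0.32, SE 0.11, adjusted p = 0.444). In the satellite cell and myogenesis list, Spry1, a brake on FGF signalling that keeps satellite cells quiescent, had 16.3, 16.4 and 16.7 CPM in hetX753 against 30.9, 33.6 and 22 CPM in hetL1002P (log2 fold change -0.81, SE 0.16, adjusted p = 0.0887). Igf2, an imprinted growth factor, averaged 24.1 ± 2.05 CPM in hetX753 and 16.3 ± 0.96 CPM in hetL1002P (log2 fold change 0.57, SE 0.11, adjusted p = 0.102).

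Of 19 tested circadian clock genes, 13 were above 0 and the median was 0.20, or 0.30 without hetX753 1, with no call. The repressors Nr1d1 and Per2 lay on opposite sides. Nr1d1 had 136, 81.4 and 135 CPM in hetX753 against 233, 188 and 178 CPM in hetL1002P (log2 fold change -0.77, SE 0.25, adjusted p = 0.406). Per2 had 18.1, 20.6 and 17.7 CPM in hetX753 against 5.59, 14.8 and 9.01 CPM in hetL1002P (log2 fold change 0.94, SE 0.40, adjusted p = 0.576). The carriers did not overlap for either gene, both picked for a small p. Of the 19 clock genes, 5 had every hetX753 library above every hetL1002P library, against 7.44% of all genes tested. The reverse held for 2, against 6.98%. Of 17 tested glucocorticoid-responsive genes, 14 were above 0 with no call and a median of 0.28, which was 0.16 without hetX753 3 and 0.48 without hetX753 1. Against WT the list median was 0.05 in hetX753 and -0.20 in hetL1002P. Ddit4, a brake on mTOR that glucocorticoids induce, spread widely, at 9.74, 43.6 and 65.3 CPM in hetX753 against 8.42, 26 and 6.5 CPM in hetL1002P (log2 fold change 1.52, SE 0.89, adjusted p = 0.73). The 27 tested atrophy and denervation genes had a median of -0.05, with 12 above 0 and none called.

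Markers of cells that surround the fibres differed in sign by type. Of 17 fibroblast and fibro-adipogenic progenitor markers, 15 were below 0 with a median of -0.41, and they summed to 1918 to 2177 CPM in hetX753 and to 1600 to 3224 CPM in hetL1002P. Col1a1, the main fibrillar collagen, had 74.4, 107 and 109 CPM in hetX753 against 216, 186 and 79.5 CPM in hetL1002P (log2 fold change -0.73, adjusted p = 0.563), so the third hetL1002P library fell among the hetX753 libraries. Without hetL1002P 2 the fibroblast median was -0.21. Tendon markers had a median of -0.41, which was -0.21 without hetL1002P 1 and -0.26 without hetX753 1, and -0.64 without hetX753 3. Macrophage markers had a median of -0.24, which became 0.03 without hetL1002P 2. Of 12 endothelial markers, 1 had every hetX753 library above every hetL1002P library, against 7.44% of all genes tested. Of the 12 markers, 9 were above 0 and the median was 0.14, or 0.04 without hetL1002P 3. They summed to 636 to 708 CPM in hetX753 and to 461 to 634 CPM in hetL1002P, without overlap, but without the water channel Aqp1 the other 11 summed to 328 to 336 CPM in hetX753 and to 261 to 346 CPM in hetL1002P, which overlap. Aqp1 itself averaged 341 ± 38.7 CPM in hetX753 and 243 ± 43.7 CPM in hetL1002P (log2 fold change 0.49, adjusted p = 0.361). The genes Hba-a1, Hba-a2, Hbb-bs, Hbb-bt, Mpo and Elane were at 0 in all carriers. The other erythroid markers still summed to 5.05 to 8.80 CPM in hetX753 and to 4.99 to 13.4 CPM in hetL1002P. Globin counts of 0 therefore do not show that erythroid RNA was absent, and their cause was not tested.

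**Figure D4:**
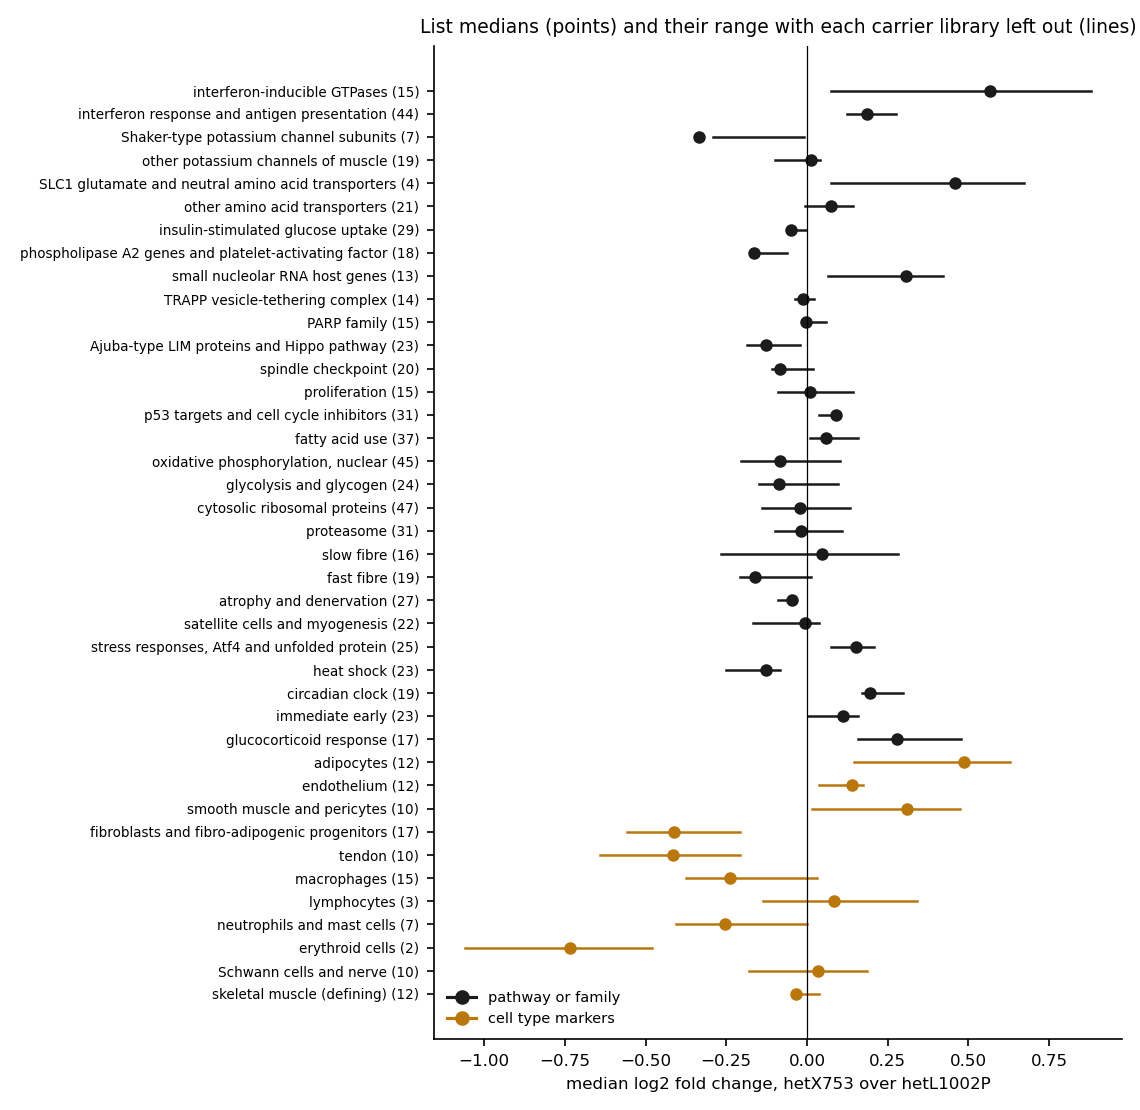
Median log2 fold change of hetX753 over hetL1002P for 40 gene lists (points; black for pathways or families, brown for cell type markers; number of tested genes in brackets), with a line over the 6 medians that each leave out 1 carrier library. The oxidative phosphorylation and ribosomal protein lines cross 0, the interferon-inducible GTPase line reaches down to 0.07, and the fibroblast line stays below 0.

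The region around Bub1b was compared because both carriers hold an altered copy there. Of 85 tested genes whose lower coordinate is within 5 Mb of that of Bub1b on chromosome 2, none was called between the carriers, 3 had an unadjusted p under 0.05, and the median log2 fold change was 0.04. Values ran from -1.05 to 0.83. Carriers did not overlap for 7 of them on the higher and 3 on the lower side, against 7.44% and 6.98% of all genes tested. With windows of 2 and 10 Mb, 39 and 138 genes were tested and none was called in either.

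A pair of genes in this window lay at similar levels in the carriers and above WT. Both were named after their values were seen. Pla2g4e, a phospholipase gene 1.57 Mb from Bub1b by lower coordinates, had 56.6, 57.3 and 58.8 CPM in hetX753 and 66.3, 63.2 and 51.3 CPM in hetL1002P, against 29.3, 28.9 and 20.98 CPM in WT. The predicted gene Gm14085, 3.89 Mb away, had 1.15, 0.671 and 1.02 CPM in hetX753 and 0.944, 0.647 and 0.807 CPM in hetL1002P, against 0, 0.052 and 0 CPM in WT. Between the carriers their log2 fold changes were -0.07 (SE 0.14) and 0.25 (SE 0.37), with adjusted p of 0.947 and 0.926 in edgeR's quasi-likelihood test. The carriers overlapped for both genes, and WT lay below all 6 carrier libraries. Against WT, adjusted p in the same test was 0.0195 for Pla2g4e and 0.0168 for Gm14085 in hetX753. In hetL1002P it was 0.0802 for each, so neither gene was called there. Libraries stood apart from WT, in either direction, for 32.5% of all genes tested in hetX753 and 9.44% in hetL1002P.

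**Figure D5:**
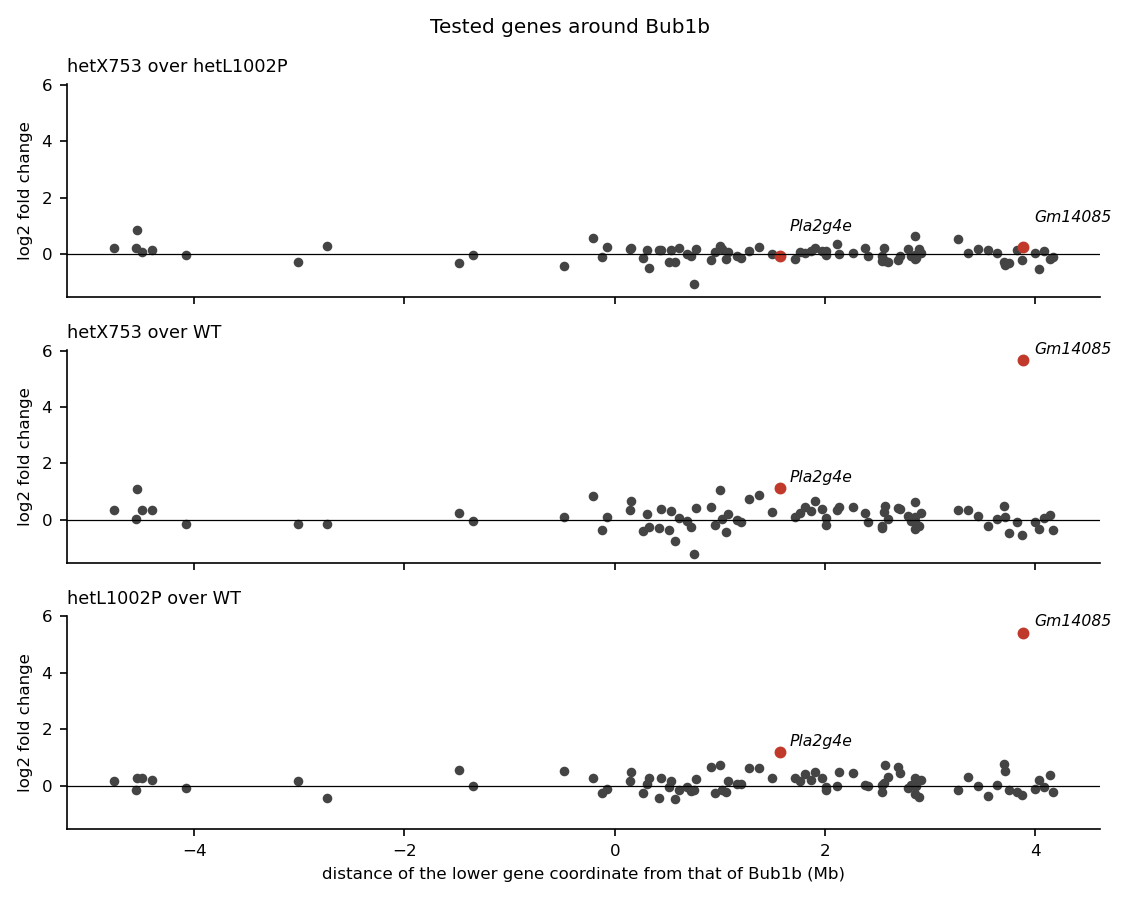
Log2 fold change (vertical axis) of the 85 tested genes around Bub1b against the distance of their lower coordinate from that of Bub1b in Mb (horizontal axis), for hetX753 over hetL1002P (top), hetX753 over WT (middle) and hetL1002P over WT (bottom). Gm14085 and Pla2g4e (red) stand above 0 in both lower panels and near 0 in the top panel; the panels share libraries, and the Gm14085 values over WT are fitted against 1 count in all of WT and are no measure of size.

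Genes next to the called ones were not called. The nearest tested gene on each side of the 15, by lower coordinate, gave 30 neighbours, of which 0 were called and 5 had an unadjusted p under 0.05 in edgeR's test. Over all genes tested, 8.24% had such a p. The carriers did not overlap for 6 of the 30, against 14.4% of all genes tested. The median size of the neighbours' log2 fold change was 0.17, against 0.15 over all genes tested. Besides Tssc1, Ropn1l and Gpr137b, those 5 were Fzd2 beside Ccdc43, a Wnt receptor gene with a log2 fold change of -0.66 (SE 0.25, adjusted p = 0.505), and Sacm1l beside Limd1, a phosphoinositide phosphatase gene at -0.35 (SE 0.14, adjusted p = 0.547).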

How the data were processed

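Whole gastrocnemius RNA of 9 mouse libraries was analysed, 3 per genotype. The authors deposited raw counts per gene symbol, as whole numbers without normalization, for 24062 symbols. Named in the submitters' processing notes are the build mm10 and the tools featureCounts 1.4.6, Subread, TopHat2 2.0.14 and Bowtie2 2.2.6, with no order given. Neither the annotation nor the strand setting is given in the sources used here. Per the labels' protocols, a TruSeq kit was used, and it does not mark strand.

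Groups came from the genotype in the sample titles. edgeR 4.0.16 in R 4.3.3 was fitted on all 9 libraries with filterByExpr, TMM scaling, robust quasi-likelihood and genotype alone (6 residual df), so the genotypes share 1 estimate of spread. Benjamini-Hochberg adjustment ran over all 12989 genes, with calls under 0.05 and no minimum fold; every adjusted p is from this test unless another tool is named. The SE of a log2 fold change is its size over the square root of F. CPM values use TMM-scaled totals and are given per library or as mean ± SD. Positions and promoters are RefSeq's on GRCm38.p6 (99.34% of symbols matched to a single gene, 11 of the 15 called genes to a promoter), and exon overlaps are from GENCODE M21.

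All called genes are named, with Bub1b and at most 4 members of each list by smallest p; other genes are named for position or relation. Lists, comparisons and rules were chosen with earlier results of these data known. Replicates differed by more than sampling noise in every pair (chi-square over df 14.3 to 65.6). The edgeR steps were tested on simulated data. Alternatives were library totals or DESeq2 size factors as scaling, other low-count filters, DESeq2 1.42.0, limma-voom 3.58.1, 1 surrogate variable (sva 3.50.0), a length and GC correction, a replicate block, and libraries left out.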

Additional observations from a re-analysis of the deposited data

How the results depend on the processing

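The 15 calls between hetX753 and hetL1002P kept their direction in all 23 alternatives, except that 2210015D19Rik had no length and was left out of the 2 fits with a length and GC correction. Their number moved more. It was 38 with no low-count filter, 138 with DESeq2, 158 with 1 surrogate variable, 40 with length and GC trends removed, and 95 without WT 3 and hetL1002P 3, where 28 were higher and 67 lower. It was 5 with the 6 carrier libraries alone. Library totals alone gave 10 and limma-voom 16. Leaving out each library in turn gave 0 to 19 calls, the highest without hetL1002P 3. Same-numbered hetX753 and hetL1002P libraries had deviations correlated at -0.16, 0.01 and -0.28. Different-numbered ones ran from -0.24 to 0.28. With 3 libraries a side this check cannot tell whether the numbers pair the libraries, and WT was not part of it. With a replicate block, 2 genes were called among the 6 carrier libraries, also with length and GC trends removed, and 31 over all 9. The cause of these shifts was not tested. The at most 4 members of each list with the smallest p included 146 genes that were not called, not all of them named above. Of these, 13 passed in at least 1 alternative, among them Cpt1a in 6 of 23 and Ucp3 in 2 of 23. Depth limits Bub1b, with 2 to 10 counts per carrier library, and genes near 1 CPM.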
